A study of Homo sapiens with 6 samples.

Results

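Nucleotide synthesis was followed through 9 enzymes, RRM1, RRM2, TYMS, TK1, DUT, CAD, PAICS, CTPS1 and UMPS, which were taken by gene symbol from the 61806 genes in the deposited table. Each symbol matched 1 row, and all 9 genes passed the filter on low values. The RNA came from MDA-MB-231, an established human triple-negative breast cancer cell line grown in culture, and the control group (n = 3) and the PB-treated group (n = 3) shared this line. PB is Parishin B, a compound of the orchid Gastrodia elata that the study had screened as a binder of the pseudokinase TRIB3. The study's text gives a dose of 20 μM and a time of 24 h for PB, and the sample labels give neither. What the control cells received in place of PB in this experiment was not given in the sources used here, and nothing says that the 3 samples of a group came from separate cultures, so p-values measure only the spread between these samples.

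Cells build pyrimidine and purine nucleotides from amino acids, bicarbonate and phosphoribosyl pyrophosphate, or recover them from nucleosides. Ribonucleotides feed RNA synthesis and the energy pool, and ribonucleotide reductase turns a part of them into deoxynucleotides for DNA. Thymidylate is then made from dUMP by thymidylate synthase or from thymidine by thymidine kinase. Transcripts of RRM1, RRM2, TYMS, TK1 and DUT are known to be highest in dividing cells around S phase, and E2F factors act on several of these promoters.

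The bases before the start of 4 of the genes are shown because they belong to the largest differences (TYMS and RRM2), to the smallest (CAD) and to a gene that shares its start region with another enzyme of its pathway (PAICS). Each is the 250 bases before the RefSeq transcript start nearest a principal transcript of the gene, on the coding strand in GRCh38.p14. Capitals mark an E2F motif (TTTGGCGC, TTTGCCGC, TTTCGCGC or TTTCCCGC), a CCAAT box (CCAAT), a GC box (GGGCGG) or an E-box (CACGTG), each also searched as its reverse complement.
TYMS, chr18:657403-657652: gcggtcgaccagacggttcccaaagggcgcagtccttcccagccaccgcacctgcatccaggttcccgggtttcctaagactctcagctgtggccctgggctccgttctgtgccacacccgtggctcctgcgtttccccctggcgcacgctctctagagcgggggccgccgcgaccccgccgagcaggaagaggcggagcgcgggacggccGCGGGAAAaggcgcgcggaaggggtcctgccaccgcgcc
RRM2, chr2:10122489-10122738: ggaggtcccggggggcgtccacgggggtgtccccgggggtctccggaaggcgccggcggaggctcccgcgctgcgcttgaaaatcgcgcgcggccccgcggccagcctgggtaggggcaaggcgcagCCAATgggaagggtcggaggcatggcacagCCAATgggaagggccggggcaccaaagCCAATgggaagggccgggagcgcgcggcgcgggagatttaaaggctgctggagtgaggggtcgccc
CAD, chr2:27217119-27217368: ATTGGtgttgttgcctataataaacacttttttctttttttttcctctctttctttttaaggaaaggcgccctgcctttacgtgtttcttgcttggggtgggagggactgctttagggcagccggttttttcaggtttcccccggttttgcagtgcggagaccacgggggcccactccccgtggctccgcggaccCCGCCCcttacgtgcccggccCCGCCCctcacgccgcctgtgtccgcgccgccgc
PAICS, chr4:56435502-56435751: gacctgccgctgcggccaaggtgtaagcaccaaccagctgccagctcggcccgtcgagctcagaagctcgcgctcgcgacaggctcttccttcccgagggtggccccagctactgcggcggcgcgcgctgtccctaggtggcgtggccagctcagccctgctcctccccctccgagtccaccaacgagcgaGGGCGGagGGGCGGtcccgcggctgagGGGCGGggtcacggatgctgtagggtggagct
The TYMS window held 1 E2F motif, read as GCGGGAAA, which began 39 bases before the start. RRM2 had 3 CCAAT boxes, which began 123, 93 and 66 bases before the start. CAD held 1 CCAAT box, read as ATTGG at the far edge of the window, and 2 GC boxes, and PAICS held 3 GC boxes within 59 bases of the start. No marked motifs overlapped in these windows. All 9 genes matched the RefSeq table. Among them the E2F motif was found in 1 (TYMS), the CCAAT box in 3 (RRM1, RRM2 and CAD), the GC box in 6 and the E-box in 0, and the UMPS window held none of these letters. Of 35116 windows of this length in the table, 2.79% held the E2F motif, 32.0% the CCAAT box, 42.6% the GC box and 6.34% the E-box. A match is a description of the letters and not a binding site, and a missing match says only that the letters are not in this window.

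All 9 enzymes were lower in PB-treated cells, and thymidylate synthase, the small subunit of ribonucleotide reductase and thymidine kinase 1 had the largest decreases. Together the 9 transcripts took 0.148% to 0.153% of all counts in the control samples and 0.0667% to 0.0689% in the PB samples. A gene was called when edgeR's quasi-likelihood test gave a p of 0.05 or less after Benjamini-Hochberg adjustment and its log2 fold change reached 1 (higher) or -1 (lower). By this rule 7 of the 9 enzymes were lower and 0 were higher, against 6.73% of the 24200 genes tested that were called lower and 5.36% that were called higher. With no line on the fold change, all 9 passed as lower, against 26.1% of all genes that passed as lower and 24.1% as higher. In FPKM (counts scaled by exonic length and by the total count of the sample) all 9 genes had each PB value under the lowest control value, which was also true of 21.6% of the genes tested. In bulk RNA, fewer cells of a kind, such as cells in S phase, and less RNA per cell cannot be told apart. The median log2 fold change was -1.21 for the 9 enzymes and 0.011 for all genes tested. In every enzyme the groups were separate, and the exact two-sided permutation p was 0.1, the smallest that 3 against 3 samples can give.

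**Figure D1:**
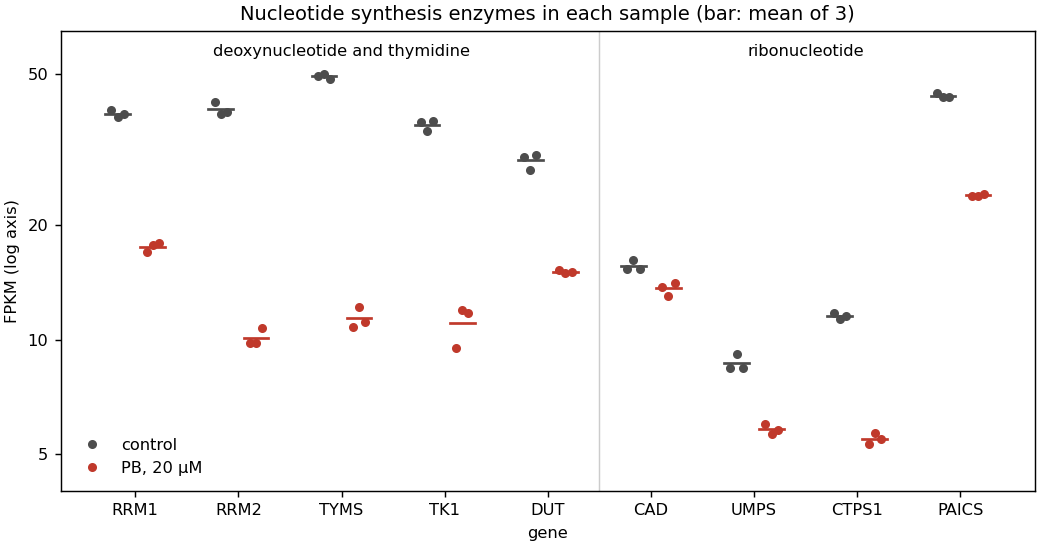
FPKM (log axis) of each of the 9 enzymes in the 3 control samples (grey) and the 3 PB samples (red), with a bar at the mean of each group. The PB points lie below the control points for every gene, with the widest gaps for TYMS, RRM2 and TK1 and the narrowest for CAD.

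Ribonucleotide reductase reduces ribonucleoside diphosphates to deoxyribonucleoside diphosphates. RRM2 (ENSG00000171848, hg38 chromosome 2 from 10120698 to 10211725, plus strand) encodes its small subunit, which carries the radical needed for catalysis. RRM2 was at 42.30, 39.23 and 39.92 FPKM in the control samples and at 9.83, 9.80 and 10.71 FPKM in the PB samples. The lowest control value was thus far above the highest PB value. The mean fell from 40.5 ± 1.61 to 10.1 ± 0.517 FPKM (SD, n = 3), and the log2 fold change was -2.13 (standard error 0.030). Standard errors of log2 fold changes were derived from the edgeR test statistic, which uses a spread shared over genes. They do not measure the spread of a gene's own samples.

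RRM1 (ENSG00000167325, chromosome 11 from 4094707 to 4138932, plus strand) encodes the large catalytic and regulatory subunit. Its control samples had 40.20, 38.63 and 39.30 FPKM, and its PB samples had 17.06, 17.79 and 17.94 FPKM. Samples of a group lay close together and the groups did not overlap. The mean went from 39.4 ± 0.788 to 17.6 ± 0.471 FPKM (SD, n = 3), and the log2 fold change was -1.29 (standard error 0.035).

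RRM2B, which encodes the alternative small subunit known as a p53 target and as the form used outside S phase, went the other way. It was at 23.16, 22.46 and 22.21 FPKM in the control samples and at 28.84, 27.29 and 28.91 FPKM in the PB samples. The rise of 0.20 in log2 (standard error 0.033) passed the test (edgeR adjusted p = 8.37e-09) but not the fold change line.

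Subunits and isozymes of the same step were then set against each other within each sample as ratios of FPKM, for 4 pairs. RRM2/RRM1 was 1.05, 1.02 and 1.02 in the control samples and 0.576, 0.551 and 0.597 in the PB samples, so the small subunit decreased more than the large subunit. The ratio was 1.79-fold lower with PB (-0.84 in log2, standard error 0.038). For the ratios, unlike the single genes, the standard error was taken from the spread of the sample values. RRM2/RRM2B changed more, from 1.83, 1.75 and 1.80 to 0.341, 0.359 and 0.370, which was 5.02-fold lower (-2.33 in log2, standard error 0.040). TK1/TK2 went from 24.2, 21.6 and 23.97 to 2.86, 3.56 and 3.33, which was 7.18-fold lower (-2.84 in log2, standard error 0.107). CTPS1/CTPS2 went from 3.66, 4.02 and 3.47 to 1.97, 2.21 and 2.29, which was 1.72-fold lower (-0.79 in log2, standard error 0.091). In all 4 pairs the groups did not overlap, with an exact two-sided permutation p of 0.1 (0.1 after adjustment over the 4 pairs), again the smallest possible. The size of a ratio depends on the gene length behind the FPKM, while its change between groups does not. With the length of the longest principal transcript in place of the full exonic length, the mean RRM2/RRM1 was 1.99 in the control group and 1.11 in the PB group, so that which subunit had the higher level in PB cells depends on this length.

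**Figure D2:**
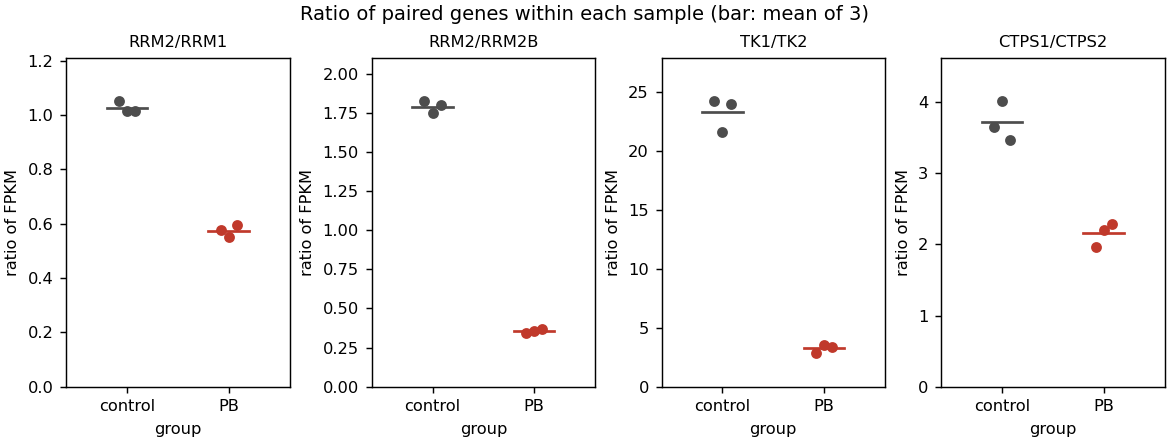
Ratio of FPKM for RRM2/RRM1, RRM2/RRM2B, TK1/TK2 and CTPS1/CTPS2 in each sample (linear axes from 0), with a bar at the mean of the 3 samples of each group. All PB points lie below all control points, and the mean TK1/TK2 goes from 23.3 to 3.25.

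In thymidylate synthesis, TYMS (ENSG00000176890, chromosome 18 from 657653 to 673578, plus strand) encodes thymidylate synthase, which methylates dUMP to dTMP and is the target of 5-fluorouracil. It had the highest FPKM of the 9 genes in the control group. The control samples had 49.62, 50.27 and 48.62 FPKM and the PB samples 10.82, 12.22 and 11.12 FPKM. The groups were separated by a wide gap. Its mean fell from 49.5 ± 0.831 to 11.4 ± 0.737 FPKM (SD, n = 3), and its log2 fold change, -2.25 (standard error 0.045), was the lowest of the 9.

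ENOSF1 lies on the opposite strand and overlaps the TYMS gene by 3261 bases, and whether the counting used strand was not given in the sources used here. ENOSF1 was higher with PB, with a log2 fold change of 0.42 (standard error 0.040, edgeR adjusted p = 4.74e-25), in the opposite direction to TYMS. The antisense gene TYMSOS, which overlaps TYMS by 698 bases, had 67 to 108 counts in the control samples and 20 to 24 in the PB samples. Without strand, its reads and those of TYMS cannot be told apart.

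DTYMK, which phosphorylates dTMP to dTDP, had 22.43, 22.78 and 24.19 FPKM in the control samples and 11.41, 12.39 and 11.44 FPKM in the PB samples. The groups did not overlap, and with a log2 fold change of -1.12 (standard error 0.053) it was called lower.

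TK1 (ENSG00000167900, chromosome 17 from 78174091 to 78187233, minus strand) encodes the cytosolic thymidine kinase, a salvage enzyme that makes dTMP from thymidine. TK1 was at 37.51, 35.44 and 37.64 FPKM in the control samples and at 9.49, 11.99 and 11.76 FPKM with PB. PB replicate 1 was below the other PB samples, and the coefficient of variation in the PB group, 12.5%, was the largest of any of the 9 genes in either group. The mean fell from 36.9 ± 1.23 to 11.1 ± 1.38 FPKM (SD, n = 3), with a log2 fold change of -1.86 (standard error 0.054). Its mitochondrial counterpart TK2 rose from 1.55, 1.64 and 1.57 FPKM to 3.32, 3.37 and 3.53 FPKM. The TK2 log2 fold change of 0.97 (standard error 0.068) lay just under the line for a call and passed it with library size alone in place of TMM (1.11).

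DUT (ENSG00000128951, chromosome 15 from 48331011 to 48343373, plus strand) encodes dUTPase, which cleaves dUTP to dUMP and so keeps uracil out of DNA while supplying the substrate of TYMS. DUT had 30.28, 28.06 and 30.73 FPKM in the control samples and 15.23, 15.01 and 15.12 FPKM in the PB samples. The PB samples were almost equal to each other. DUT fell from a mean of 29.7 ± 1.43 to 15.1 ± 0.110 FPKM (SD, n = 3), and the log2 fold change was -1.11 (standard error 0.040). With library size alone it was -0.98, which is short of the line.

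Among the 9 enzymes, those of pyrimidine ring synthesis had the smallest differences. CAD (ENSG00000084774, chromosome 2 from 27217369 to 27243943, plus strand) encodes the protein with the carbamoyl phosphate synthetase, aspartate transcarbamylase and dihydroorotase activities that start the pathway. CAD was at 15.38, 16.18 and 15.35 FPKM in the control samples and at 13.80, 13.05 and 14.14 FPKM with PB. The gap between the lowest control and the highest PB sample was small beside that of the other enzymes. The mean went from 15.6 ± 0.471 to 13.7 ± 0.558 FPKM (SD, n = 3), and the log2 fold change of -0.32 (standard error 0.034) passed the test but not the line. With library size alone the log2 fold change of CAD was -0.19, so its size depends on the scaling.

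UMPS (ENSG00000114491, chromosome 3 from 124730433 to 124749273, plus strand) encodes the enzyme that completes UMP in the last 2 reactions of the pathway. Its control samples had 8.44, 9.15 and 8.42 FPKM and its PB samples 5.99, 5.65 and 5.77 FPKM. Again the groups were separate. UMPS fell from a mean of 8.67 ± 0.416 to 5.80 ± 0.172 FPKM (SD, n = 3), with a log2 fold change of -0.71 (standard error 0.047) that passed the test but not the line.

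CTPS1 (ENSG00000171793, chromosome 1 from 40979300 to 41012565, plus strand) encodes CTP synthase 1, which aminates UTP to CTP. It was at 11.77, 11.37 and 11.57 FPKM in the control samples and at 5.31, 5.67 and 5.48 FPKM in the PB samples. Neither group had a sample that stood apart. CTPS1 fell from a mean of 11.6 ± 0.200 to 5.49 ± 0.180 FPKM (SD, n = 3), and the log2 fold change was -1.21 (standard error 0.037). The second CTP synthase gene, CTPS2, had a log2 fold change of -0.43 (standard error 0.084), and DHODH, the mitochondrial dihydroorotate dehydrogenase, had -0.49 (standard error 0.082). Both passed the test as lower, and neither reached the line.

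PAICS (ENSG00000128050, chromosome 4 from 56435741 to 56464578, plus strand) was the purine enzyme among the 9 and catalyses a carboxylation and a ligation in the making of the purine ring. It had 44.60, 43.60 and 43.62 FPKM in the control samples and 23.93, 23.85 and 24.23 FPKM in the PB samples. Both groups were tight. The mean fell from 43.9 ± 0.572 to 24.003 ± 0.200 FPKM (SD, n = 3). The log2 fold change of -1.005 (standard error 0.028) lay on the line. PAICS was called lower, and the call was lost with library size alone (-0.87), with a mean FPKM of at least 1 (-0.97), without control replicate 1 (-0.99) and without PB replicate 2 (-0.998).

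PPAT, the first committed enzyme of purine synthesis, is transcribed away from PAICS, and the RefSeq starts of this pair lie 137 bases apart, so that the window printed for PAICS reaches into PPAT. PPAT went from 16.21, 15.92 and 15.34 FPKM to 10.31, 9.83 and 9.59 FPKM. Its log2 fold change of -0.81 (standard error 0.042) passed the test but not the line.

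The decreases were thus uneven between roles. The 5 enzymes of deoxynucleotide and thymidine supply (RRM1, RRM2, TYMS, TK1 and DUT) were all called lower, with a median log2 fold change of -1.86. Of the 4 enzymes of ribonucleotide synthesis (CAD, UMPS, CTPS1 and PAICS), 2 were called lower, with a median of -0.86. Among all genes tested 6.73% were called lower. With library size alone DUT (-0.98) and PAICS (-0.87) lost their calls. The 2 roles overlapped, as CTPS1 (-1.21) fell more than DUT (-1.11). This difference between roles is a description over few genes and was not tested. The edgeR standard errors of the 9 log2 fold changes, which use a spread shared over genes, ranged from 0.028 to 0.054. The log10 of the edgeR adjusted p ranged from -1063 to -20.3. Values this small rest on dispersions estimated with information from other genes. With the fit limited to genes at a mean FPKM of 1 or more, the edgeR adjusted p ranged from 9.81e-45 to 8.77e-11.

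**Figure D3:**
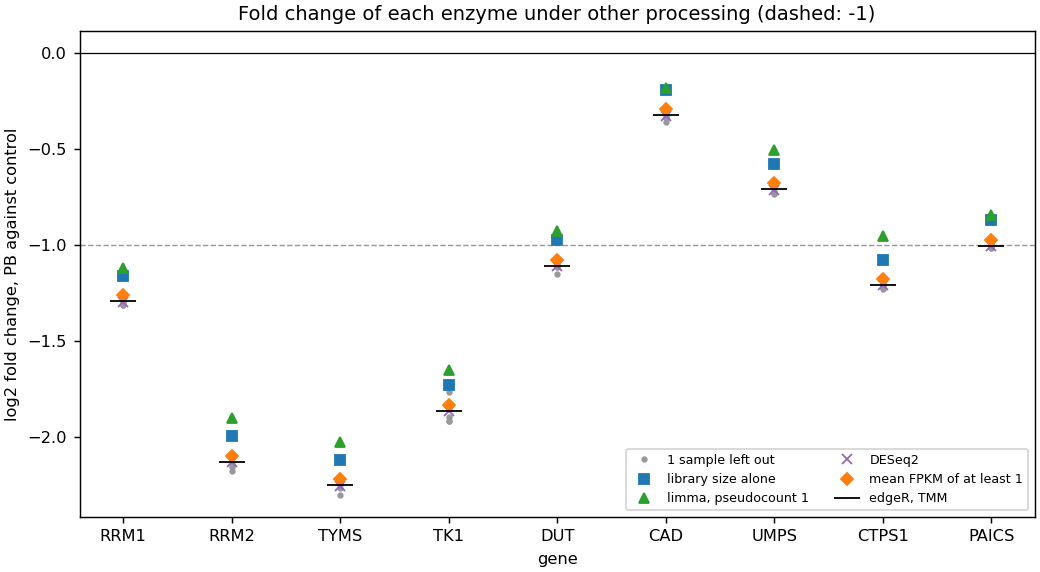
Log2 fold change of each of the 9 enzymes (PB against control) with TMM scaling in edgeR (black bar), with each sample left out (grey points) and under 4 other settings, with a dashed line at -1. All values are below 0, and DUT, CTPS1 and PAICS are the genes that cross the line in some settings.

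The order of levels changed between the groups. In the control group it ran, from high to low FPKM, TYMS, PAICS, RRM2, RRM1, TK1, DUT, CAD, CTPS1 and UMPS, and only RRM2 and RRM1 had ranges that overlapped. In the PB group it ran PAICS, RRM1, DUT, CAD, TYMS, TK1, RRM2, UMPS and CTPS1, where TYMS and TK1, TK1 and RRM2, and UMPS and CTPS1 overlapped. By FPKM, TYMS, RRM2 and TK1 were above CAD in the control group and below it in the PB group. These levels use the full exonic length, which for RRM2 and CTPS1 was 2.67 and 3.74 times the longest principal transcript. Per length of that transcript RRM2 was the highest of the 9 in the control group, at 108.0 on the FPKM scale, ahead of TYMS at 72.1. On this scale RRM2 (27.0) and TYMS (16.6) were also above CAD (15.9) in the PB group, so their place below CAD depends on the length used. TK1 was above CAD in the control group on this scale too (41.8 against 18.2) and below it in the PB group (12.6). The summed FPKM of the 9 genes was between 271.9 and 280.1 in the control samples and between 111.5 and 116.3 in the PB samples.

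The rest of nucleotide metabolism was followed through 44 further genes in 6 lists. Of these 6 were called lower and 2 higher, against 6.73% and 5.36% of all genes tested. CDA, among the 6, passed the filter on low values only through the control group. Another 23 passed the test as lower and 8 as higher without reaching the line, and 5 did not pass. Among the 24200 genes tested, 4693 and 4533 passed in this way as lower and higher, and 12049 did not pass. The median log2 fold change of the 44 genes was -0.32. In de novo purine synthesis (12 genes) PRPS2, which makes phosphoribosyl pyrophosphate, was the gene called lower, with a log2 fold change of -1.19 (standard error 0.044). Another 9 genes of the list passed as lower without reaching the line, from PRPS1 (-0.96) to ADSS2 (-0.26). ADSS1 passed as higher (0.55), and GART, which encodes 3 activities of the same pathway, did not pass (log2 fold change -0.05, edgeR adjusted p = 0.103). With library size alone the GART log2 fold change was 0.081 and passed as higher (edgeR adjusted p = 0.00498). The median of the purine list was -0.47.

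In nucleoside salvage (9 genes) 0 genes were called in either direction, 5 passed as lower and 3 as higher, and the median was -0.13. Among all genes tested, 26.1% passed as lower and 24.1% as higher. DGUOK, among those that passed as lower (-0.13), was at 0.0022 with library size alone (edgeR adjusted p = 0.973). DCK, deoxycytidine kinase, had a log2 fold change of -0.28 (standard error 0.045), and the gene overlaps MOB1B on the same strand, so that reads may be shared. Among 7 nucleotide kinases NME1, a nucleoside diphosphate kinase, was called lower (-1.07, standard error 0.042), and the median was -0.27. A read-through gene, NME1-NME2, covers NME1 and could take some of its reads. In deoxynucleotide synthesis beyond the 9 genes (3 genes), DTYMK was called lower, RRM2B passed as higher and DCTD did not pass (0.04, edgeR adjusted p = 0.435). The median of these 3 genes was 0.04.

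Nucleotide breakdown and pool control (11 genes) held calls in both directions, 3 lower and 2 higher, against 6.73% and 5.36% of all genes tested. UPP1, uridine phosphorylase 1, which splits uridine into uracil and ribose phosphate, rose from 4.76, 4.52 and 4.81 FPKM to 22.60, 23.84 and 24.46 FPKM. Its log2 fold change of 2.197 (standard error 0.049) was the highest of the 9 enzymes and these 44 genes. TYMP, thymidine phosphorylase, rose from 0.37, 0.47 and 0.63 FPKM to 1.43, 1.45 and 1.28 FPKM, with a log2 fold change of 1.32 (standard error 0.186). TYMP had 22 to 50 counts in the control samples, and its call was lost with limma and a pseudocount of 1 (0.68). SCO2 and ODF3B overlap TYMP on the same strand, so that reads may be shared. PNP, which phosphorylyses purine nucleosides, fell, and its log2 fold change was -1.53 (standard error 0.058). DCTPP1, a dCTP pyrophosphatase, had a log2 fold change of -1.49 (standard error 0.065). DCTPP1 overlaps ZNF771 on the opposite strand, with the same limit as for TYMS. CDA, cytidine deaminase, had 89 counts over the 3 control samples and 2 counts over the 3 PB samples. CDA passed the filter on low values only through the control group. Scaled by library size, its PB level was 2.47% of the control level, with a 95% exact interval from 0.294% to 9.17% that covers counting error only.

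**Figure D4:**
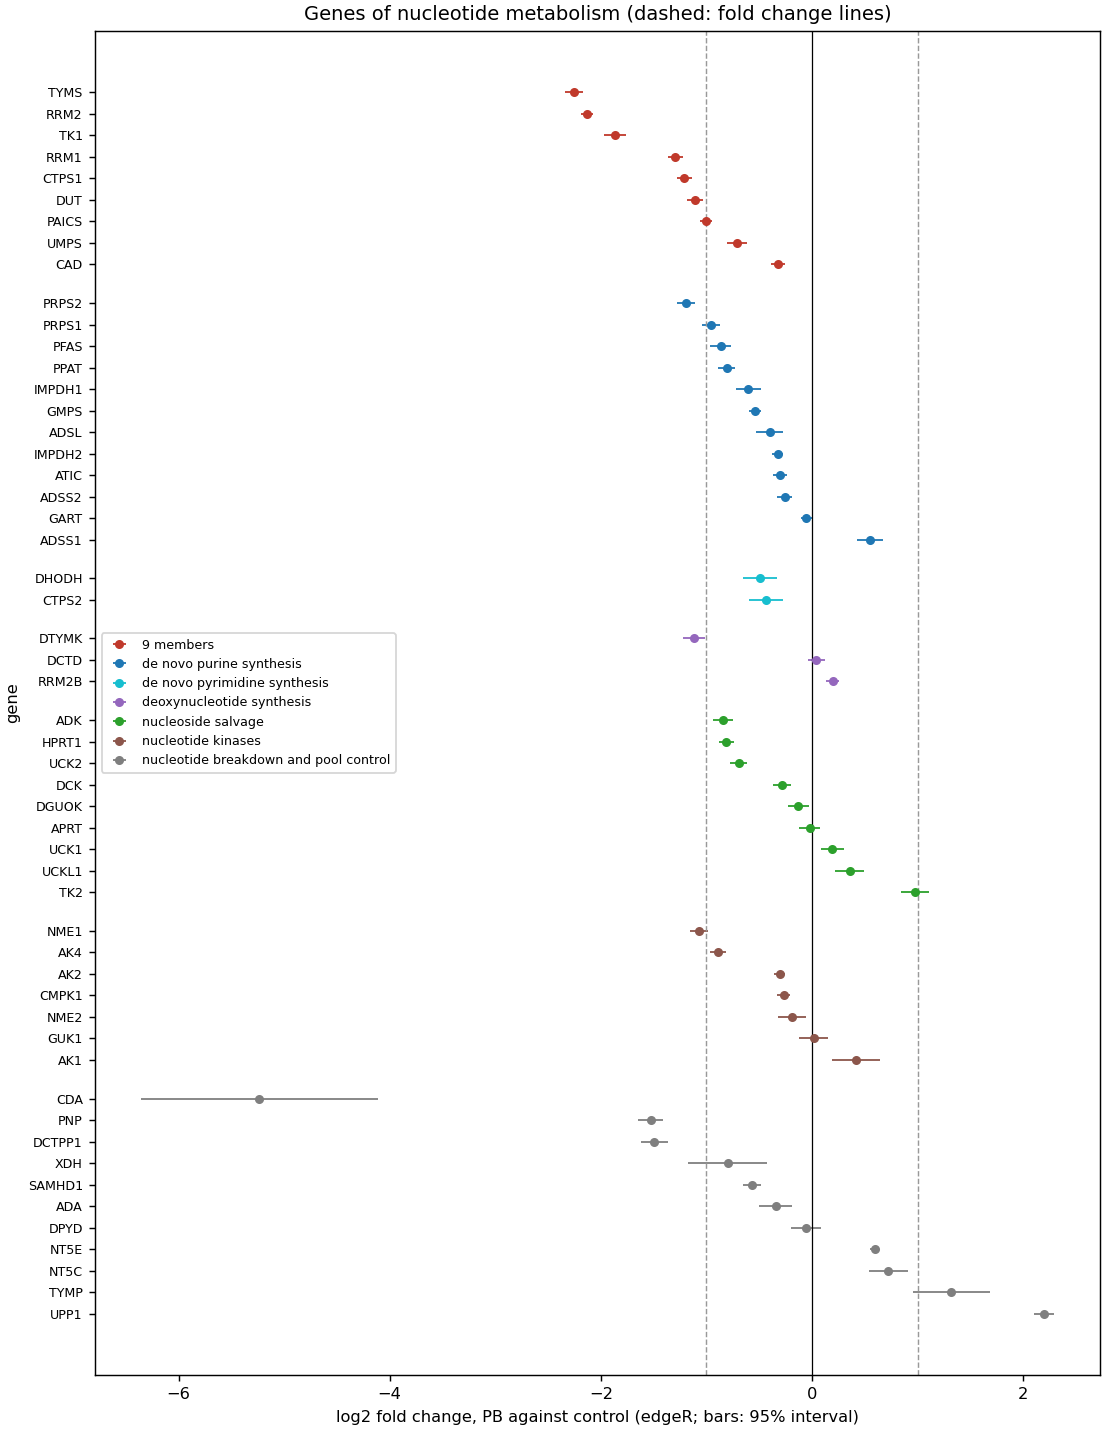
Log2 fold change (PB against control, edgeR) with 95% intervals from the edgeR standard errors, for the 9 enzymes and the 44 other genes of nucleotide metabolism. Genes are ordered within each list, with dashed lines at -1 and 1. The 9 enzymes all lie below 0, while the other lists straddle 0 or lie mostly between the lines, with CDA far to the left and UPP1 to the right.

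Genes of DNA replication moved with the 9 enzymes. A list of 40 S phase genes was formed without the 3 that are also among the 9 (RRM1, RRM2 and TYMS). Of the 40 genes, 30 were called lower and 40 of 40 had a negative log2 fold change. The values ranged from -2.27 to -0.27, with a median of -1.30. Among all 24200 genes tested, 6.73% were called lower and 11809 had a negative log2 fold change. The counts of all 43 S phase genes summed to 5179 to 5225 CPM (counts scaled to a common library size) in the control samples and to 2328 to 2353 CPM in the PB samples.

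Genes near RRM2 by pattern over the 6 samples were sought among 13482 genes with a mean FPKM of 1 or more. The 9 enzymes and the 44 other nucleotide genes were left out. The 3 nearest were EPAS1, IDI1 and TGM2, at Euclidean distances of 0.054, 0.142 and 0.142 in centred log2 normalized counts. Nearest to CAD were ENSG00000233461, TPCN1 and ANAPC11, at 0.050, 0.053 and 0.056. Their log2 fold changes were -2.15, -2.08 and -2.17 for the first set and -0.33, -0.34 and -0.29 for the second. Similar fold changes follow from this choice, because samples of a group lay close and the distance is largely set by the difference between groups.

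Total counts ranged from 15681655 to 21986948 per sample, and 3 counts corresponded to 0.136 to 0.191 CPM. The 9 genes had 278 to 8033 counts in a sample. The 20 pseudogenes named after them had at most 12 counts in any sample. Differences within a group were a little above counting noise (chi-square per degree of freedom from 1.45 to 1.92, against 71.1 to 85.1 between groups). The median log2 fold change of all genes was 0.138 with library size alone and 0.011 with TMM, so the decreases above are relative to the TMM scale. The summed level of 7 mesenchymal markers of the line, among them VIM and AXL, was 6070 to 6217 CPM in the control samples and 5557 to 5583 CPM in the PB samples, with none at 0. All 7 had a negative log2 fold change on the TMM scale, and FN1 (-1.46) and CAV1 (-1.16) were called lower. VIM was at -0.059 on that scale. In FPKM it had 591.7 to 615.2 in the control samples and 631.8 to 639.4 in the PB samples, so its direction depends on the scaling. ESR1, PGR and ERBB2 together had 31.1 to 42.0 CPM. A list of 18 epithelial markers summed to 1869 to 1891 CPM in the control samples and to 645 to 666 CPM in the PB samples. Of 13 tested, 9 were called lower and 1 higher, against 6.73% and 5.36% of all genes tested. ESRP1 was called higher (1.63), and KRT19, CLDN4 and MUC1 did not pass (-0.23, 0.15 and 0.34). KRT7 (-6.79), KRT8 (-1.60) and KRT18 (-1.38) were among those called lower. KRT8 and KRT18 still had means of 38.9 and 120.6 FPKM in the PB group. GRHL2, CLDN7, OVOL1, CDH3 and ST14 were too low in both groups to be tested. The filter on low values used the mean over all 6 samples. CDH1, ELF3, EHF, AGR2 and CEACAM6 passed it only through the control group, so the filter shaped the count called lower. Of the 18 markers, 0 to 2 were at 0 in a control sample against 5 to 6 in a PB sample. CDH1, ELF3, AGR2 and CEACAM6 had 30 counts or more in each of the control samples and no more than 3 in any PB sample. In all, 113 genes had this pattern and took 0.178% to 0.181% of the control counts. The part of these markers in the decreases of the 9 enzymes was not tested.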

How the data were processed

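The RNA-seq data covered 3 control and 3 PB-treated samples of MDA-MB-231, grouped by their titles. Poly(A) RNA had been sequenced as paired reads of 150 bases, on an instrument that the labels name as NovaSeq and the paper as HiSeq. The authors deposited raw counts per gene and FPKM values, and 100% of the FPKM values equalled, within rounding, the count divided by exonic length and total count. The submitters' processing notes name hg38, HTSeq 0.6.1, Cufflinks 2.2.1 and DESeq2, and the aligner, annotation release and strandedness were not given in the sources used here. Gene coordinates are those of the deposited table, principal transcripts are from GENCODE 29, and promoter sequences are from RefSeq (GRCh38.p14).

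The 24200 genes whose mean FPKM reached 0.1 were tested with edgeR 4.0.16 in R 4.3.3 (TMM, quasi-likelihood test, Benjamini-Hochberg adjustment). The common dispersion was 0.000495, and the median biological coefficient of variation was 6.97%. TMM factors were 0.948 to 0.962 in control and 1.04 to 1.05 in PB samples. Ratios were compared with exact permutation tests (scipy 1.17.1). Alternatives were DESeq2 1.42.0, limma 3.58.1 with trend on log2(FPKM + 0.1) and log2(FPKM + 1), library size alone, other filters, a log2 line of 2, the replicate number as a block and each sample left out. Levels per principal transcript length were added after seeing the data. The scripts were tested on simulated data. Named genes were the 9 enzymes, every called gene of the 6 lists, the partners RRM2B, TK2, DCK, CTPS2 and PPAT and the nearest genes, and other genes were named after their values were seen. The enzymes, lists and rules were chosen with earlier results of these data known. Some genes of these pathways are not reported here.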

Additional observations from a re-analysis of the deposited data

How the results depend on the processing

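All 9 enzymes had a negative log2 fold change and an adjusted p of at most 0.05 under every setting tried. The number called lower (7) became 4 with limma and a pseudocount of 1 and 2 with a log2 line of 2, which RRM2 and TYMS passed, and ranged from 6 to 7 when a sample was left out. The call of CTPS1 was lost with limma at a pseudocount of 1 (-0.95), and DUT and PAICS also fell short at either pseudocount. Of the 44 other genes, the 6 called lower became 1 (CDA) and the 2 called higher became 1 (UPP1) with a log2 line of 2. With library size alone, and with limma and a pseudocount of 0.1, 4 were called lower and 3 higher. With limma and a pseudocount of 1, 4 were called lower and 1 higher. DTYMK and NME1 lost their calls with library size alone (-0.98 and -0.94). Over the settings, 265 of 285 values of 22 genes (the 9 enzymes, the 8 called genes of the lists and the 5 partners) kept their direction and their side of the line, 17 fell short of it, 3 passed it (TK2) and 0 changed sign. Of the other list genes, GART, DGUOK, APRT and DPYD turned positive with library size alone (0.081, 0.0022, 0.112 and 0.076), and the nearest genes were not followed over the settings. All 36 values of the 4 ratios kept their direction. Same-numbered samples did not deviate together (correlations 0.0020, 0.045 and -0.023), so the numbers were not taken to pair them. With a replicate block the number called lower was 7 and the median log2 fold change -1.21, as without it. Per length of the longest principal transcript the mean ratios in the control and PB groups were 1.99 and 1.11 for RRM2/RRM1, 4.37 and 0.871 for RRM2/RRM2B, 13.0 and 1.82 for TK1/TK2, and 10.8 and 6.29 for CTPS1/CTPS2. Groups of 3 limit the exact tests to a p of 0.1, and CDA, with 2 counts in all PB samples, is limited by depth.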
